A study of Mus musculus with 16 samples.

Results

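The 10 genes described here belong to the antioxidant programme of the transcription factor NRF2. They were taken by symbol from the deposited expression tables, which list 18480 entries per library, and all 10 were found once each and passed the filter on low values. The 16 RNA libraries come from subcutaneous grafts of MC38, a colon carcinoma line of the mouse. The labels name 4 groups of 4 libraries, namely control, exercise, anti-PD-L1 (an antibody against the checkpoint ligand PD-L1) and both treatments at once, called the combination below. PD-1 blockade stands in the title of the series, and the sample labels, which name PD-L1, are followed here. All groups carry the same graft, so the controls differ from the others only in receiving neither treatment as far as the labels state. The labels used here state no mouse strain, age, exercise schedule, antibody dose or time of sampling. Nor do they tie each library to an animal of its own, so the p-values reflect the spread among these libraries alone, which may be technical.

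NRF2, encoded by Nfe2l2, is held at low protein level by KEAP1, a cysteine-rich adaptor that presents it to a cullin ubiquitin ligase. Oxidants and electrophiles modify KEAP1, NRF2 then accumulates, pairs with small MAF proteins and binds antioxidant response elements in its target genes. This control acts mainly on NRF2 protein, so target transcripts are commonly used as its readout in tumours, where the pathway supports glutathione, thioredoxin and haem metabolism. The targets measured here make glutathione (Gclc, Gclm) and keep it reduced (Gsr), run the thioredoxin and peroxiredoxin cycle (Txnrd1, Srxn1, Prdx1), reduce quinones (Nqo1) and break down haem (Hmox1).

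The antioxidant response element has the core TGACNNNGC, which was searched on both strands in RefSeq promoter windows (GRCm38.p6) from 250 bases before to 50 bases after each start site. Windows were found for 7 of the 10 genes, 9 windows in all because Txnrd1 has several start sites. Only windows of full length on the chromosome of the gene itself were counted. Gsr, Hmox1 and Gclc had no window in the table. The core was present in 5 windows, 1 each of 5 genes, and in 12.4% of all 32851 windows of the same length. The windows of Nqo1 and Keap1 held no match to these letters. The 5 stretches are shown because they match this core, and whether NRF2 reads these sites was not tested. The core is in capitals with up to 16 bases on each side, read 5′ to 3′ on the strand of the gene.
Nfe2l2 (chr2:75704879-75704913, minus strand): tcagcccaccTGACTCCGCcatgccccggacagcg
Srxn1 (chr2:152105536-152105573, plus strand): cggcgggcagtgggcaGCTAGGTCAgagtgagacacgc
Gclm (chr3:122245407-122245447, plus strand): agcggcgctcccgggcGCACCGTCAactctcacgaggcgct
Prdx1 (chr4:116685450-116685490, plus strand): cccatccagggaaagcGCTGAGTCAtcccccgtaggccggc
Txnrd1 (chr10:82859098-82859138, plus strand): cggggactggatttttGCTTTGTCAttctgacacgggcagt
In the last 4 the core lies on the opposite strand. In Prdx1 it overlaps a match to TGACTCA, the letters read by AP-1 factors, which 5.20% of all windows hold. Both such matches of Srxn1, at 102 and 45 bases before its start site, lie apart from its core. A match is a description of the letters and shows no binding.

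Summed FPKM (a fragment count corrected for transcript length and for library size) lay between 478672 and 529732 per library, and the read depth is unknown. Controls 1 and 2 stood apart on the first principal component, at -30.8 and -41.4 where the other libraries lay between -17.0 and 26.3, so values are also given without them where it matters. Both had the highest summed level of 10 macrophage markers, 811 and 1087 FPKM against 157 to 707 in the other 14, and none of these markers was at 0 in any library. Control 2 also held 261 FPKM of 4 skeletal muscle markers, which summed to 1.15 to 8.79 elsewhere. Epithelial markers of colon were low, with 1.70 to 8.27 FPKM summed over 7 genes and Epcam, Krt8 and Krt18 each under 0.2 FPKM in the mean of every group.

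Transcripts of the programme were present in every library, over a wide range of levels. Prdx1, a peroxidase that removes hydrogen peroxide, had the highest level per length with a mean of 223 FPKM over the 16 libraries. Hmox1 followed with 109, Gsr with 41.9, Txnrd1 with 39.0, Nfe2l2 with 26.5, Gclm with 22.3, Srxn1 with 19.54, Keap1 with 19.46, Gclc with 13.4 and Nqo1 with 5.39. Of the 9 neighbouring pairs in this order, 5 had means closer than the larger SD of the pair over the 16 libraries. These were Prdx1 and Hmox1, Hmox1 and Gsr, Gsr and Txnrd1, Gclm and Srxn1, and Srxn1 and Keap1. Compared within each library, the first gene of these pairs was the higher in 14, 14, 11, 12 and 7 of the 16, in the same order. Keap1 had the smallest spread within groups, a residual SD of 0.10 on the log2(FPKM + 1) scale, at the percentile 5.39 of the 11868 genes tested. Hmox1 had the largest of the 10, 0.97, at the percentile 99.4, where the median gene had 0.18.

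**Figure D1:**
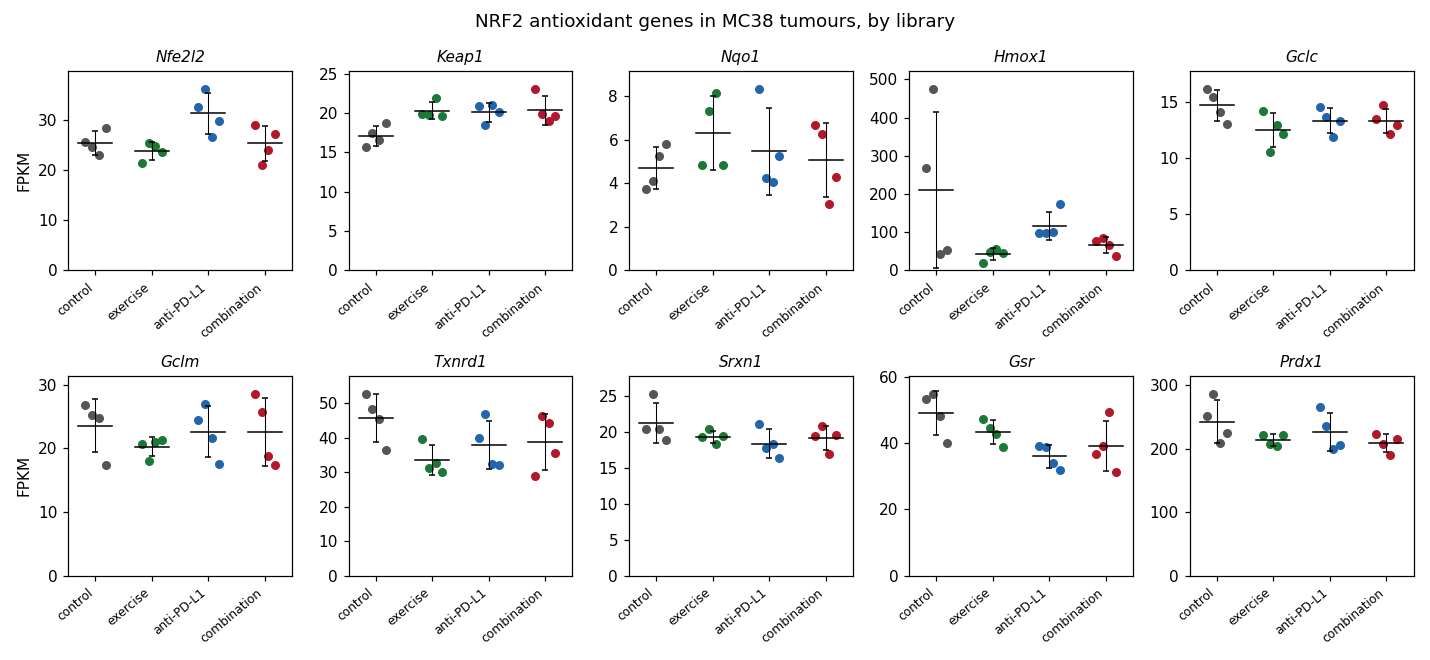
FPKM of the 10 genes in each of the 16 libraries (points, replicates 1 to 4 from left to right within a group), with the group mean and SD (black). Keap1 lay lowest in control, from 15.65 to 18.73 FPKM, and Hmox1 spread from 42.72 to 475.31 FPKM within the control group.

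By the limma test none of the 10 genes passed an adjusted p of 0.05 in any comparison. Against control, anti-PD-L1 gave 0 of 10 where 0.253% of all genes passed, and exercise and the combination gave 0 of 10 where 0% did. The combination against anti-PD-L1, the combination against exercise and the interaction of both treatments also gave 0 of 10, with 0% of all genes in each. At an unadjusted p under 0.05 the count for anti-PD-L1 against control was 3 of 10, with Nfe2l2 and Keap1 above 0 and Gsr below, beside 23.5% of all genes. For exercise against control it was 4 of 10, with Keap1 above 0 and Hmox1, Gclc and Txnrd1 below, beside 18% of all genes. For the combination against control it was 2 of 10, Keap1 and Gsr, beside 8.2%, and for the combination against anti-PD-L1 it was 1 of 10, Nfe2l2, beside 3.94%. It was 0 of 10 for the combination against exercise, beside 13.6%, and 0 of 10 for the interaction, beside 13.1%.

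Groups of libraries failed to overlap for 1 of the 10 genes in 4 comparisons. This was Gsr for anti-PD-L1 against control, where 10.8% of all genes did not overlap. Keap1 was the gene for exercise against control, beside 7.72%, and for the combination against control, beside 3.83%. Hmox1 was the gene for the combination against anti-PD-L1, beside 2.24%. No gene of the 10 separated the combination from exercise, beside 6.94%. The median log2 fold change of the 10 genes was -0.12 for anti-PD-L1, -0.17 for exercise and -0.14 for the combination against control, where the medians of all genes were -0.04, -0.02 and -0.03. Without controls 1 and 2 the medians of the 10 genes were 0.013, -0.030 and -0.032, beside -0.048, 0.00031 and -0.027 for all genes. The value moved by over 1.5 times or turned its sign for 8 of the 10 genes with the antibody, 8 with exercise and 9 with the combination, all but Keap1 and, for the first 2, Nfe2l2. These 3 comparisons share the control libraries.

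**Figure D2:**
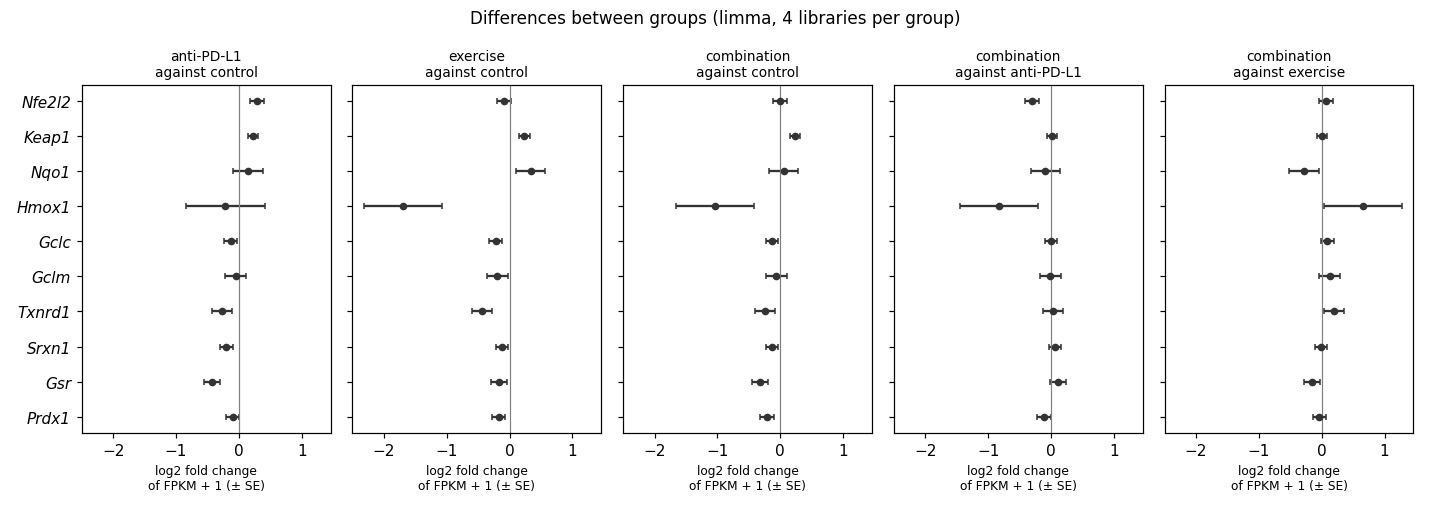
Log2 fold changes of FPKM + 1 (points) with standard errors (bars) from limma for the 10 genes in 5 comparisons of 4 libraries against 4. Most values lie within 0.5 of 0, and Hmox1 has the widest bars, with a standard error of 0.63.

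The regulators come first. Keap1 (chromosome 9, 21229730 to 21239332 in RefSeq, GRCm38.p6), the brake on NRF2, measured 15.65, 17.43, 16.56 and 18.73 FPKM in control tumours. It measured 19.88, 19.75, 21.88 and 19.68 in exercise, 20.95, 18.41, 20.99 and 20.09 in anti-PD-L1, and 23.06, 19.81, 18.93 and 19.59 in combination tumours. Every exercise and every combination library thus lay above every control, while anti-PD-L1 library 2 lay below control 4. The log2 fold change against control was 0.24 ± 0.08 (standard error) for exercise and 0.24 ± 0.08 for the combination, with an adjusted p of 0.188 and 0.572 in limma. For anti-PD-L1 it was 0.22 ± 0.08, and its adjusted p in limma was 0.129. The 3 treated groups had nearly equal means, 20.3 ± 1.06, 20.1 ± 1.21 and 20.3 ± 1.85 FPKM (SD, n = 4 each) in exercise, anti-PD-L1 and combination, against 17.1 ± 1.31 in control. Across 25 alternative fits the value for exercise ranged from 0.19 to 0.28. The summed keratinocyte markers also did not overlap between exercise and control, being higher with exercise, and the summed T and NK cell markers were higher in the combination than in control without overlap. Their part in these values was not tested.

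Nfe2l2 (chromosome 2, 75675513 to 75704663), which encodes NRF2, measured 25.76, 24.60, 22.98 and 28.49 FPKM in control tumours, and with the antibody 32.66, 36.29, 26.74 and 29.82. In exercise it measured 21.42, 25.52, 24.97 and 23.77, and in the combination 29.10, 21.07, 24.01 and 27.37. The highest 3 values of all 16 libraries came from the antibody alone, and only its library 3 lay within the control range. For anti-PD-L1 against control the log2 fold change was 0.29 ± 0.11 with an adjusted p of 0.147 in limma, and 0.28 without controls 1 and 2. The combination against anti-PD-L1 gave -0.30 ± 0.11 with an adjusted p of 0.968 in limma. Exercise and the combination against control gave -0.09 ± 0.11 and -0.01 ± 0.11, the latter turning to 0.02 when libraries were centred on their medians.

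Of the glutathione genes, Gsr, the reductase that restores reduced glutathione (chromosome 8, 33653238 to 33698162), measured 53.21, 54.82, 48.16 and 40.14 FPKM in control. Anti-PD-L1 tumours measured 39.30, 38.75, 34.06 and 31.97, each below each control. Exercise tumours measured 47.44, 44.68, 42.65 and 38.77, and combination tumours 36.80, 39.17, 49.39 and 31.43, both overlapping the controls. The log2 fold change for anti-PD-L1 was -0.43 ± 0.13 and its adjusted p in limma, 0.0908, was the lowest of the 10 genes in any comparison. The adjusted p in limma was 0.0372 without control 4, at -0.52, where the count of all genes went from 30 to 768, and 0.622 without controls 1 and 2, at -0.29. For the combination against control the value was -0.33 ± 0.13, with an adjusted p of 0.6 in limma, and -0.18 without controls 1 and 2. Summed T and NK cell markers were between 2.12 and 3.78 FPKM in control and between 4.28 and 12.7 in anti-PD-L1 tumours, and Nkg7, the only 1 of these 6 markers that passed the filter, had an adjusted p of 0.0436 in limma. Summed macrophage markers were between 222 and 1087 FPKM in control and between 157 and 403 with the antibody, with all 10 log2 fold changes below 0 and none past the threshold. In these bulk tumours fewer cells of a type and less RNA per cell cannot be told apart, and the part of cell types in the Gsr values was not tested.

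Gclc and Gclm encode the catalytic and the modifier subunit of glutamate cysteine ligase, which makes the first step of glutathione synthesis. Gclc measured 14.7 ± 1.41 FPKM in control, 12.45 ± 1.52 in exercise, 13.3 ± 1.11 in anti-PD-L1 and 13.3 ± 1.11 in combination tumours (SD, n = 4 each). Its log2 fold change for exercise against control was -0.22 ± 0.10 with an adjusted p of 0.256 in limma, and -0.12 without controls 1 and 2. Gclm measured 23.5 ± 4.17 FPKM in control, 20.2 ± 1.49 in exercise, 22.65 ± 4.04 in anti-PD-L1 and 22.6 ± 5.39 in combination tumours. Its groups overlapped in every comparison, and in 3 of the 4 groups the SD was larger than any difference between group means.

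In the thioredoxin system, Txnrd1, the selenoprotein that reduces thioredoxin, measured 52.63, 48.39, 45.55 and 36.39 FPKM in control tumours. Exercise tumours measured 39.76, 31.21, 32.71 and 30.11, where only library 1 lay above the lowest control. Anti-PD-L1 tumours measured 39.83, 46.81, 32.44 and 32.18, and combination tumours 28.91, 46.27, 44.38 and 35.68, both spread across the range of the other groups. For exercise against control the log2 fold change was -0.44 ± 0.16 with an adjusted p of 0.201 in limma. It was -0.28 without controls 1 and 2 and -0.52 without exercise library 1, with an adjusted p of 0.623 and 0.077 in limma. Without exercise library 1 the count of all genes for exercise went from 0 to 611, and none of the 10 genes was among them.

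Srxn1 encodes sulfiredoxin, which repairs over-oxidised peroxiredoxins. It measured 21.3 ± 2.77 FPKM in control, 19.3 ± 0.83 in exercise, 18.4 ± 1.98 in anti-PD-L1 and 19.2 ± 1.63 in combination tumours (SD, n = 4 each). Its lowest adjusted p was 0.232 in limma, for anti-PD-L1 against control, at a log2 fold change of -0.20 ± 0.10, which was -0.096 without controls 1 and 2. Prdx1 measured 243 ± 33.7 FPKM in control, 214 ± 9.39 in exercise, 226 ± 30.3 in anti-PD-L1 and 209 ± 14.1 in combination tumours. Both genes had their highest value of all libraries in control 2, 25.25 FPKM for Srxn1 and 286.16 for Prdx1. For Prdx1 the log2 fold change of the combination against control, -0.21 ± 0.11, was -0.06 without controls 1 and 2.

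Nqo1, which reduces quinones and is a widely used target of NRF2, had the lowest level of the 10. It measured 3.72, 4.12, 5.24 and 5.81 FPKM in control, 4.84, 7.33, 8.17 and 4.86 in exercise, 8.34, 4.24, 4.04 and 5.25 in anti-PD-L1 and 6.66, 6.29, 3.04 and 4.31 in combination tumours. The groups thus overlapped in all comparisons. The log2 fold change against control was 0.34 ± 0.23 for exercise, 0.15 ± 0.23 for anti-PD-L1 and 0.06 ± 0.23 for the combination, with an adjusted p of 0.443, 0.738 and 0.962 in limma. The last 2 turned to -0.06 and -0.15 without controls 1 and 2.

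Hmox1 (chromosome 8, 75093618 to 75100593), the inducible haem oxygenase, is also made by macrophages that take up haem. It measured 267.24, 475.31, 42.72 and 54.08 FPKM in control tumours, so controls 1 and 2 were several times as high as controls 3 and 4. Exercise tumours measured 19.85, 49.33, 55.71 and 45.99, anti-PD-L1 tumours 97.96, 97.22, 99.70 and 172.61, and combination tumours 76.78, 84.57, 66.64 and 37.22. The antibody alone thus lay above the combination in every library, where 2.24% of all genes did not overlap between these groups. It also lay between the pairs of controls. Against control, the log2 fold change was -1.70 ± 0.63 for exercise, -0.21 ± 0.63 for anti-PD-L1 and -1.04 ± 0.63 for the combination, with an adjusted p of 0.203, 0.865 and 0.688 in limma. Without controls 1 and 2 these became -0.26, 1.22 and 0.39, so 2 of the 3 turned their direction, with an adjusted p of 0.83, 0.61 and 0.9996 in limma.

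In the limma model fitted to all libraries, standard errors and p-values also draw on the spread among the controls. The log2 fold change itself uses no control library in the combination against anti-PD-L1. There Hmox1 had a log2 fold change of -0.83 ± 0.63 with an adjusted p of 0.968 in limma, and -0.83 ± 0.28 with an adjusted p of 0.996 when only these groups were fitted. The two-sided exact permutation test of this single gene gave p = 0.0286, the smallest that 4 libraries against 4 allow. Over the 50 such tests of 10 genes in 5 comparisons the adjusted exact p was 0.357, as it was for Gsr with the antibody and for Keap1 with exercise and with the combination.

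Markers of macrophages and red cells stood beside Hmox1 as follows. Controls 1 and 2 had the highest macrophage sums, as given above, and the anti-PD-L1 library with 172.61 FPKM of Hmox1 had 2949 FPKM summed over 4 erythroid markers, where the other 15 libraries had 49.7 to 577. Its macrophage sum, 403, was also the highest of its group. Over the 16 libraries, in a relation chosen after the Hmox1 values were seen, Hmox1 and the mean of the 10 macrophage markers had Pearson's r = 0.35 (permutation p = 0.184) and Spearman's rho = -0.10 (permutation p = 0.703). Without controls 1 and 2, the 2 libraries farthest from the median of Hmox1, r was -0.53. For deviations from the group means over all 16 libraries r was 0.58. The sign of r thus turned when these 2 libraries were left out, and with them kept r and rho differed in sign. The part of macrophages and red cells in the Hmox1 levels was not tested further.

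**Figure D3:**
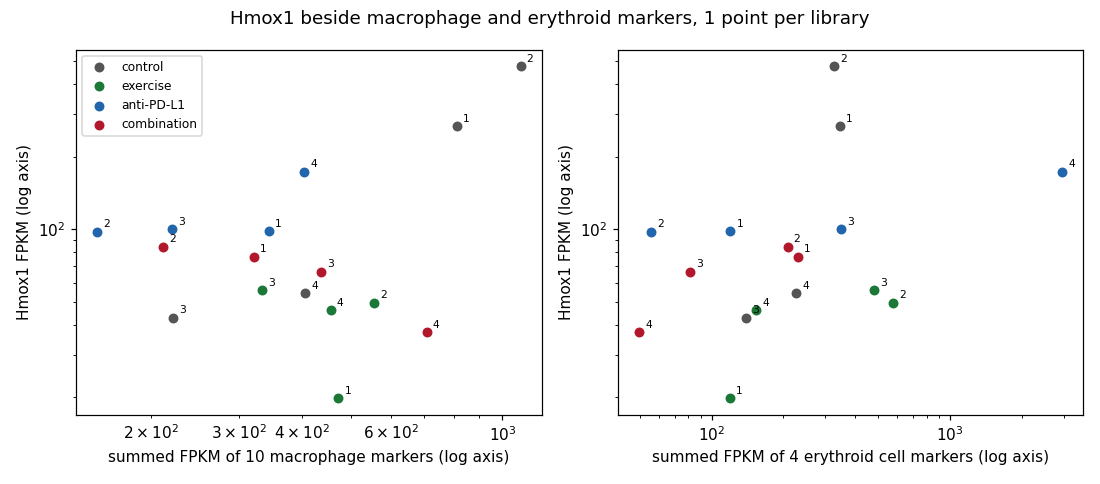
Hmox1 FPKM against the summed FPKM of 10 macrophage markers (left) and 4 erythroid markers (right), both on log axes, with 1 point per library and its replicate number. Controls 1 and 2 lie at the upper right on the left panel, and anti-PD-L1 library 4 lies far to the right, at 2949 FPKM, on the right panel.

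How the genes varied together was described over the 45 pairs. Of these, 30 had r above 0, and 3 had an adjusted permutation p under 0.05 for Pearson's r, while none did for Spearman's rho. Keap1 and Txnrd1 went in opposite directions, with r = -0.77 (adjusted permutation p = 0.0112) and rho = -0.69 (adjusted permutation p = 0.102). This remained at -0.68 without controls 1 and 3, the libraries farthest from the median of Keap1, and at -0.71 for the deviations from the group means. Gclc and Txnrd1 had r = 0.70 (adjusted permutation p = 0.0375) and rho = 0.70 (adjusted permutation p = 0.102), with r = 0.59 without control 1 and exercise 2 and 0.55 for deviations. Srxn1 and Prdx1, a repair enzyme and its substrate protein, had r = 0.71 (adjusted permutation p = 0.0375) and rho = 0.55 (adjusted permutation p = 0.158). Their r was 0.48 without control 2 and anti-PD-L1 library 4 and 0.73 for deviations. Nfe2l2 itself had r between -0.45 and 0.29 with the other 9 genes.

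**Figure D4:**
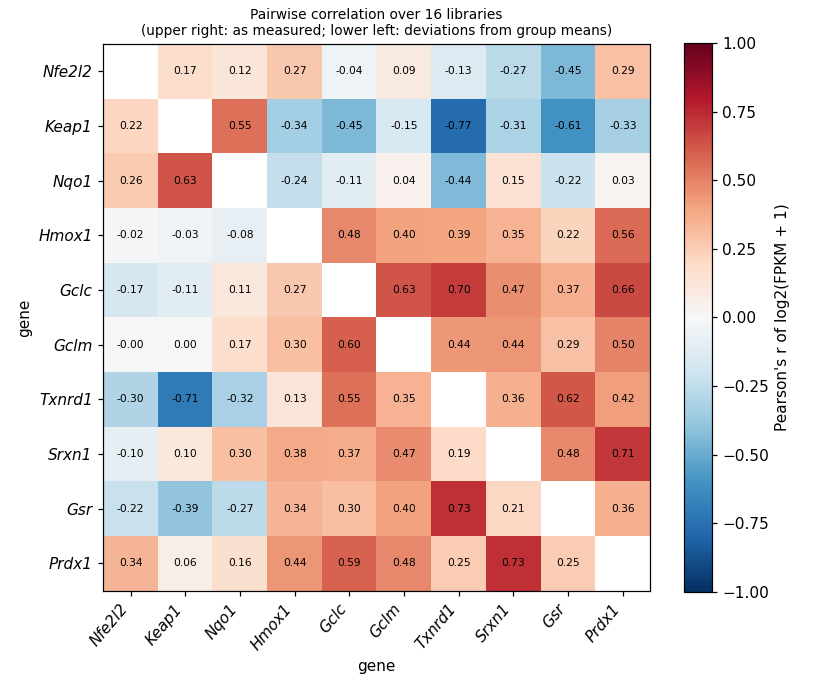
Pearson's r of log2(FPKM + 1) between the 10 genes over 16 libraries, as measured (upper right) and for deviations from the group means (lower left). The lowest value is -0.77 for Keap1 and Txnrd1. Hmox1, Gclc, Gclm, Txnrd1, Srxn1, Gsr and Prdx1 all have positive values among themselves over the 16 libraries. Among them, only Gclc with Txnrd1 and Srxn1 with Prdx1 had an adjusted permutation p under 0.05. Without controls 1 and 2, r of Hmox1 was -0.50 with Gsr, -0.39 with Srxn1 and -0.05 with Txnrd1. It was 0.05 with Gclc, 0.20 with Gclm and 0.03 with Prdx1, and r of Gsr and Prdx1 was -0.13.

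Of 80 other genes of the pathway, listed by role, 72 passed the filter on low values. By limma 0 of the 72 passed in each of the 6 comparisons. For anti-PD-L1 against control 11 had an unadjusted p under 0.05 with a value above 0 and 13 with a value below 0, which makes 24 of 72 or 33.3%, beside 23.5% of all genes. For exercise the counts were 6 and 9, or 20.8% beside 18%, and for the combination 1 and 3, or 5.56% beside 8.2%. The median log2 fold change of the 72 was -0.06 with the antibody, -0.06 with exercise and -0.05 with the combination, beside -0.04, -0.02 and -0.03 for all genes. Without controls 1 and 2 these medians turned to 0.038, 0.045 and 0.038.

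With the antibody, 9 of 12 thioredoxin and peroxiredoxin genes lay below 0, 6 of them at an unadjusted p under 0.05, beside 57.7% and 23.5% of all genes, and the median of the 12 was -0.23. It was -0.11 without controls 1 and 2. Among other regulators of NRF2, 9 of 10 lay above 0, all but Btrc, where 57.7% of all genes lay below 0. Of these, 4 had an unadjusted p under 0.05 in limma (Nfe2l1, Maff, Mafk and Sqstm1), beside 23.5% of all genes. The median was 0.14, or 0.12 without controls 1 and 2. This list mixes genes of different roles, such as the ligase genes Cul3 and Rbx1 and the small MAF genes. Its counts therefore give no direction of NRF2 control. The other 5 lists had 10 above and 11 below 0 (glutathione), 6 and 6 (quinone, aldehyde and drug metabolism), 2 and 4 (NADPH supply), 3 and 4 (iron and haem) and 0 and 4 (superoxide and hydrogen peroxide removal). The smallest p-values belonged to Gstm1, a glutathione transferase with close relatives that can share reads, to Idh1 and to Gpx3. Gstm1 measured 25.2 to 45.1 FPKM in control and 49.1 to 65.8 with the antibody, where 10.8% of all genes did not overlap. Its log2 fold change was 0.71 ± 0.19 with an adjusted p of 0.0783 in limma. Idh1, which supplies NADPH, was at -0.59 ± 0.16, and Gpx3, a secreted glutathione peroxidase, at -2.43 ± 0.71, with an adjusted p of 0.0783 and 0.0915 in limma. Gpx3 measured 77.25 and 115.65 FPKM in controls 1 and 2 but 11.14 and 10.37 in controls 3 and 4, beside 2.16 to 10.3 with the antibody, and its value without controls 1 and 2 was -0.92.

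For exercise against control the smallest p-values were those of Nqo2, a relative of Nqo1, Sesn2, a stress-induced sestrin, and Mgst1, a microsomal glutathione transferase. In limma all 3 had an adjusted p of 0.181, at -0.36 ± 0.10, -0.84 ± 0.23 and -0.999 ± 0.295. Mgst1 measured 13.05 and 20.65 FPKM in controls 1 and 2 but 5.44 and 6.37 in controls 3 and 4, and its value without the first 2 was -0.33. Sesn2 lay between 2.82 and 5.11 FPKM in exercise and between 6.27 and 9.24 in control tumours. Nqo2 lay between 5.68 and 7.56 FPKM in exercise and between 8.34 and 9.16 in control tumours. Neither overlapped, where 7.72% of all genes did not overlap between these groups. The other listed genes that passed the filter and did not overlap were Gpx8 and Esd (lower with exercise) and Aldh3a1, Txnip and Fech (higher). For the combination against control Gpx3 was at -2.15 ± 0.71, Prdx4 at -0.24 ± 0.11 and Prdx2 at -0.28 ± 0.12, with an adjusted p of 0.572, 0.607 and 0.607 in limma. Without controls 1 and 2 they were at -0.64, -0.11 and -0.18. Against anti-PD-L1 the combination had Prdx5 at -0.34 ± 0.14, Fth1, the ferritin heavy chain, at -0.34 ± 0.16 and Idh1 at 0.33 ± 0.16, where limma gave an adjusted p of 0.968 to all 3. Prdx5 lay between 70.2 and 80.9 FPKM in the combination and between 82.2 and 113 with the antibody alone. Between these groups 2.24% of all genes did not overlap.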

How the data were processed

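The authors deposited FPKM, with 2 decimals, per the file headers. The submitters' processing notes list HISAT, Bowtie2 and GRCm38.p6 without version or role; the program that made the FPKM values is not given in the sources used here. No counts were used and the depth is unknown. Values were taken as log2(FPKM + 1), a scale that understates changes of low genes. Entries reaching 1 FPKM in 4 or more libraries (11868) were fitted together in one limma model of the 4 groups (limma 3.58.1, R 4.3.3, trend and robust settings) and p-values were adjusted by Benjamini-Hochberg over all of them within each comparison, at 0.05. Single genes were also compared by a two-sided exact permutation test, and pairs of genes by permutation tests with 100000 resamples (numpy 2.4.6). The model was tested on simulated data. No libraries were identical. The members, gene lists and tests were chosen with earlier results of these data known. From the list of other pathway genes, those past the threshold were to be named, otherwise the 3 with the smallest p in each comparison. Alternatives were another limma setting, 2 scalings, 2 filters, a pseudocount of 0.1, only the groups compared, a replicate block and libraries left out. Figures were drawn with matplotlib 3.10.9.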

Additional observations from a re-analysis of the deposited data

Results flagged for a closer look

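Of 40 groups of 4 libraries (10 genes in 4 groups), 2 held a library far from the other 3, judged by its gap to the nearest library as a share of the group's range, against Dixon's critical value at the 95% level. Chance flags about 1 in 20 groups. Hmox1 was at 172.61 FPKM in anti-PD-L1 library 4, a gap share of 0.967, the library with the highest erythroid marker sum. Keap1 was at 21.88 FPKM in exercise library 3, a gap share of 0.909.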

How the results depend on the processing

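Over 1490 refits of single genes, 1439 kept their direction and their side of the threshold, 1 passed it (Gsr with the antibody, without control 4) and 50 changed sign. The count of the 10 genes called for anti-PD-L1 against control ranged from 0 to 1 when each library was left out, and was 0 in every other fit and comparison. The count of all genes for anti-PD-L1 against control was 30, and was 117 with quantile normalization, 77 with centring, 8 with no filter, 15 with the replicate block and 4 without controls 1 and 2. Leaving out single libraries it ranged from 6 to 768, and moved by over 1.5 times without any control (10, 6, 17, 768), any anti-PD-L1 library (11, 6, 55, 7), exercise 1, 2 or 4 (317, 19, 18) and combination 3 (86). For exercise it ranged from 0 to 611, for the interaction from 0 to 223, and for the combination against exercise from 0 to 184, each highest without exercise 1. For the latter it was 0, and 2 with quantile normalization, centring or a mean of at least 5 FPKM, 1 with only the groups compared and 5 without controls 1 and 2. The cause was not tested. The replicate numbers did not pair the libraries: deviations of same-numbered libraries correlated above 0.1 in 6 of 24 pairs, from -0.62 to 0.34, and libraries matched their own number best in 10 of 48 cases. The block changed no call of the 10 genes. The medians and the other pathway genes without controls 1 and 2 were computed after seeing the data.

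Without controls 1 and 2 the signs turned, with the antibody, for Nqo1 (-0.057), Hmox1 (1.22), Gclm (0.10) and Prdx1 (0.054), with the combination for Nqo1 (-0.15), Hmox1 (0.39) and Gclm (0.088), and in the interaction for Hmox1 (-0.56) and Prdx1 (-0.090). With quantile normalization Gclm turned to 6.1e-05 with the antibody and Nfe2l2 to 0.018 with the combination, and with centring Nfe2l2 to 0.023. Leaving out single libraries gave, for the antibody, ranges of -0.045 to 0.25 for Nqo1, -0.75 to 0.40 for Hmox1 and -0.18 to 0.059 for Gclm. For the combination against control they were -0.077 to 0.073 for Nfe2l2, -0.071 to 0.24 for Nqo1 and -0.20 to 0.044 for Gclm. Against anti-PD-L1 they were -0.045 to 0.046 for Keap1, -0.22 to 0.10 for Nqo1, -0.053 to 0.039 for Gclc, -0.13 to 0.096 for Gclm, -0.060 to 0.16 for Txnrd1 and -0.0092 to 0.20 for Gsr. Against exercise they were -0.058 to 0.036 for Keap1, -0.053 to 0.041 for Srxn1 and -0.070 to 0.0073 for Prdx1, and in the interaction -0.018 to 0.14 for Prdx1.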

Other observations

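The 3 tested genes outside the list whose pattern over the 16 libraries was most like the mean of the standardised levels of the 10 genes were Ormdl2 (Pearson's r = 0.87), B4galt5 (r = 0.83) and Hacd1 (r = 0.83). These values describe 16 libraries that share a platform and a scaling, and the genes were picked from 11868 for being highest. That mean was highest in control 2, at 1.03 SD, and lowest in combination library 3, at -0.58. In 4 groups it spread from positive to negative values in all but the exercise group, where the 4 libraries lay between -0.43 and -0.05.

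For the combination against exercise the pathway genes with the smallest p were Esd, an esterase, at 0.43 ± 0.12, Sesn2 at 0.64 ± 0.23 and Ptgr1, a reductase of lipid aldehydes, at -0.38 ± 0.14, with an adjusted p of 0.207, 0.265 and 0.272 in limma. For the interaction of exercise and antibody they were Akr1b3, aldose reductase, at 0.53 ± 0.20, Gstp2, which has a near-identical neighbour and is uncertain for that reason, at -1.38 ± 0.56, and Ephx1, an epoxide hydrolase, at -1.30 ± 0.53. Their adjusted p in limma was 0.365, 0.366 and 0.366. Among the 10 genes the interaction was largest beside its error for Txnrd1, at 0.47 ± 0.22 with an adjusted p of 0.387 in limma.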
